A study of Mus musculus with 5 samples.

Results

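The regions described here were 1 kb stretches of the mouse genome that were dense in CpG, the dinucleotide at which mammalian DNA is methylated, and whose methylation level was intermediate. The autosomes were divided into adjoining tiles of 1000 bp on the GRCm38 assembly. A tile was taken when it held at least 50 CpG dyads (a CpG with its 2 cytosines, 1 on each strand), had at least 20 calls in each of 5 libraries, and had a mean of the 5 libraries' levels from 15% to under 60%. The methylation level of a tile was its methylated calls over all its calls. These criteria were met by 2490 tiles, 18.1% of the 13730 CpG-dense tiles with that coverage, out of 1021389 tiles of any CpG content. Of the other CpG-dense tiles, 10229 lay under 15% and 1011 at 60% or over. The tiles were chosen by their mean level, which is therefore given as a description, whereas the difference between genotypes was not used to choose them. Since 3 of the 5 libraries behind the mean were from 1 genotype, a tile that was higher in that genotype could pass the lower bound through it. When both genotypes were given equal weight, 2397 tiles met the criteria.

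The libraries were made by whole-genome bisulfite sequencing (WGBS) of leukemic blasts, the immature cells of acute myeloid leukemia (AML), from bone marrow, with C57BL/6 given as the strain by the labels. All 5 libraries carried Cebpa-/p30, that is, no functional copy of one Cebpa allele and a second allele that gives only the short p30 isoform of this myeloid transcription factor. Libraries 23 and 24 were Cebpa-/p30 Tet2+/+, and libraries 5, 7 and 8 were Cebpa-/p30 Tet2-/-. By the methods of the study, floxed alleles were recombined by Mx1-Cre after marrow of single donors had been transplanted into irradiated C57BL/6J.SJL recipients. The study calls this knockout specific to hematopoietic cells. Mx1-Cre itself is induced through interferon and is not restricted to blood. Live donor-derived CD45.2+ cells that lacked CD3, B220 and Ter119 were then sorted. The labels give no age and no batch, and the study describes the replicates as separate mice. Over the coding part of exon 11 of Tet2 (chr3:133466740-133468190), 83 and 111 calls were found in the Tet2+/+ libraries and 0 in each Tet2-/- library. Over the coding part of exon 3 the same Tet2-/- libraries had 402, 399 and 249 calls. Tile levels are averages over all sorted cells, so a change in the makeup of those cells cannot be told apart from a change of methylation within them.

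Stretches dense in CpG, known as CpG islands, lie at most mammalian promoters and are kept free of methylation in nearly all cells, while CpGs elsewhere are mostly methylated. DNA methyltransferases write the mark, and the TET dioxygenases, TET2 among them in blood cells, oxidise it and so start its removal. Islands that do carry methylation are known for silencing in imprinting, where only the copy from 1 parent is methylated. They are also known at germline genes in somatic cells, on the inactive X and in cancer. A partial level over a tile can come from a mixture of methylated and unmethylated cells, from a difference between the parental copies, from single molecules that carry methylation at some CpGs, or from a boundary inside the tile. Calls summed over a tile do not separate these. TET2 is among the genes most often mutated in clonal hematopoiesis and AML.

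The sequences below show what such DNA looks like, for 3 tiles with the largest gains in Tet2-/-, both tiles with a loss, and 1 tile of an imprinted gene. Each is the 300-base window of its tile with the most CpG, read from the + strand of GRCm38, with every CG in capitals.
Fignl2, chr15:101054024-101054323: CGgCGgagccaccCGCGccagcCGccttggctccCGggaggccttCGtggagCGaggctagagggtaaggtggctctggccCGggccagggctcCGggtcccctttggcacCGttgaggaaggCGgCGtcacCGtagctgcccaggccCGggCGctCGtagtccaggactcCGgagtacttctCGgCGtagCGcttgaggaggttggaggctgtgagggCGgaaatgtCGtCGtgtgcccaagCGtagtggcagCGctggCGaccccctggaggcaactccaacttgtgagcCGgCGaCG
Tubb5, chr17:35835352-35835651: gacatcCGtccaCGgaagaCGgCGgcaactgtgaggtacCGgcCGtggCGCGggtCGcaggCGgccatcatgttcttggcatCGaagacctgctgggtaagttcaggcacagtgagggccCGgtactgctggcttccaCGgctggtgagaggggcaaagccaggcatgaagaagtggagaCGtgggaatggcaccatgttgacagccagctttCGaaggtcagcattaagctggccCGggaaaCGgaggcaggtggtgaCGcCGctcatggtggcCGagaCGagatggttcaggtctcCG
Mycn, chr12:12937088-12937387: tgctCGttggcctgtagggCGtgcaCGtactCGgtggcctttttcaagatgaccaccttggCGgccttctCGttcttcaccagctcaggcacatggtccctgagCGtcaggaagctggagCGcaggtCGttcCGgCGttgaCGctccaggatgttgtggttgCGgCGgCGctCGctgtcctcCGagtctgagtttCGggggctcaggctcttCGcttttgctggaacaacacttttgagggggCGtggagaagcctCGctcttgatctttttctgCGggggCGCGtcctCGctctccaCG
1700001L05Rik, chr15:83367196-83367495: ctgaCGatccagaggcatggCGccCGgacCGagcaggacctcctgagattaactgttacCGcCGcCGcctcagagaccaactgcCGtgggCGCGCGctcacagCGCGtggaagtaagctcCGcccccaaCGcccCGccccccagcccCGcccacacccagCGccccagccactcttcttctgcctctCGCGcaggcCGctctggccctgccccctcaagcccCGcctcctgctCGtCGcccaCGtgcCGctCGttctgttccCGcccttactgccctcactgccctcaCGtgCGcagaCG
Diras2, chr13:52530330-52530629: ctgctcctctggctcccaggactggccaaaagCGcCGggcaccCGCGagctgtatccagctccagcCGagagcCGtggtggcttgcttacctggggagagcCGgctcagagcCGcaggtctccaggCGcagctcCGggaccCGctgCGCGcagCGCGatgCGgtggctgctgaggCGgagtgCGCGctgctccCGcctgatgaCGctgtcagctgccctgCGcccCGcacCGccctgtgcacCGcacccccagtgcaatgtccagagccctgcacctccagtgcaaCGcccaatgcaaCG
Commd1, chr11:22972337-22972636: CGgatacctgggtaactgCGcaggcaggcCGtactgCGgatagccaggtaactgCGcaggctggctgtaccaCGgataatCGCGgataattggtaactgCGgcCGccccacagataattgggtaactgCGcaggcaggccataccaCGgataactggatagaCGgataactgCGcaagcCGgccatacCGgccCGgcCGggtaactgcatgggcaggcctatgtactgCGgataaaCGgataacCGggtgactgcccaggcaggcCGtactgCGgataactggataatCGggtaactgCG
The Fignl2 window held 30 CG. Its level was 17.3% and 4.72% in libraries 23 and 24 and 88.8%, 50.2% and 91.2% in libraries 5, 7 and 8. The Mycn window held 26 CG and went from 8% and 0% in Tet2+/+ to 53.04%, 95% and 86.6% in Tet2-/-. The 0% came from 0 of 161 calls, which allows up to 1.86% if calls are independent. At 1700001L05Rik the window of 31 CG was at 94.0% and 15.4% in Tet2+/+ and at 0.667%, 0.578% and 0.962% in Tet2-/-. The Commd1 window of 25 CG lay at 31.4%, 48.0%, 29.9%, 28.7% and 34.3% in libraries 23, 24, 5, 7 and 8, with no such switch.

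Depth set the precision of each tile. The libraries held from 61122068 to 107360283 calls on the autosomes, 2.999 to 5.27 per dyad, and 0.807% to 0.989% of calls on mitochondrial DNA, which serves as a control for incomplete conversion, read as methylated. A partly methylated CpG-dense tile had a median of 227.5 calls in library 23, 218.5 in library 24, 341.5 in library 5, 419 in library 7 and 178 in library 8, and never fewer than 21. The autosomal level was 67.3% and 62.3% in Tet2+/+ and 70.9%, 74.8% and 68.4% in Tet2-/-, so every Tet2-/- library was above both Tet2+/+ libraries over the genome as a whole.

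Averaged over the 2490 tiles, the level was 25.7% in library 23 and 24.1% in library 24, and 35.4%, 30.4% and 35.9% in libraries 5, 7 and 8. All Tet2-/- libraries were thus above both Tet2+/+ libraries. Tet2+/+ had a mean of 24.9% ± 1.11 (SD, n = 2), against 33.9% ± 3.05 (SD, n = 3) for Tet2-/-, a difference of 9.01 percentage points (points from here on), where the mean difference over all autosomal tiles was 7.61 points. With 2 libraries against 3, an exact permutation test over libraries cannot give a p below 0.1. The median difference of a tile was 8.62 points, with quartiles of 2.27 and 14.9, and 2046 tiles (82.2%) had a positive difference. In CpG-dense tiles under 15% the median difference was 0.308 points, in those at 60% or over it was 2.66 points, and over all autosomal tiles it was 6.00 points. The classes were cut on the mean of the same libraries, so a CpG-dense tile with a large gain left the lowest class and entered the middle one, and the contrast of the classes is not a result about the tiles. In the 693 partly methylated tiles with a Tet2+/+ mean under 15% the median difference was 13.4 points, and in the other 1797 it was 6.13 points.

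**Figure D1:**
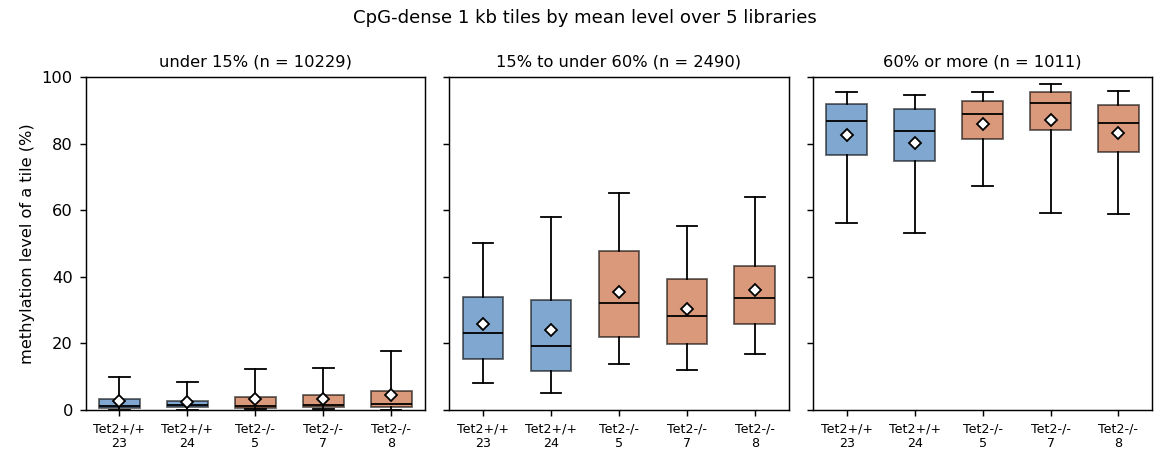
Methylation level (%) of CpG-dense tiles in each library, for tiles with a mean level under 15% (left), from 15% to under 60% (middle) and of 60% or more (right). Boxes span the quartiles with the median as a line, whiskers run from the 5th to the 95th percentile, and diamonds are means; in the middle panel the means are 25.7% and 24.1% in Tet2+/+ and 35.4%, 30.4% and 35.9% in Tet2-/-.

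**Figure D2:**
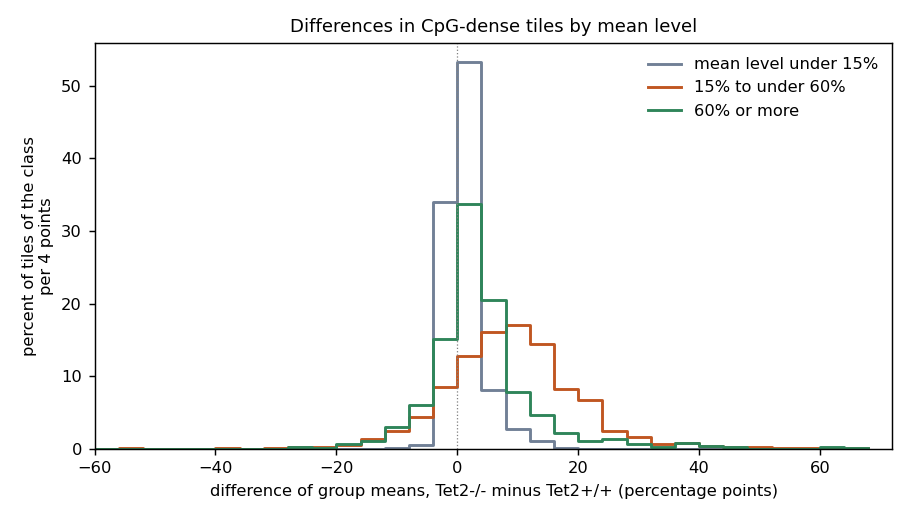
Difference of group means (Tet2-/- minus Tet2+/+, percentage points) in bins of 4 points, as a percent of the tiles of each of the 3 level classes. The partly methylated tiles are spread around a median of 8.62 points, the low and high classes around 0.308 and 2.66 points.

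The libraries of 1 genotype did not behave alike in these tiles. Library 7 had the highest autosomal level of all, yet it was the lowest of the Tet2-/- libraries in 1181 of the 2490 tiles (47.4%), against 15.5% of the CpG-dense tiles at 60% or over. It was above both Tet2+/+ libraries in 1343 tiles (53.9%), library 5 in 1712 (68.8%) and library 8 in 1670 (67.1%). The median gap between the Tet2+/+ libraries was 6.81 points, and the median range over the Tet2-/- libraries was 15.4 points. Across the 2490 tiles, Pearson's r between the levels of 2 libraries ran from 0.251 (libraries 24 and 8) to 0.656 (libraries 23 and 24). These values describe tiles that share a narrow range of mean levels, and tiles of 1 library share its depth.

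To ask which single tiles differed, the methylated and unmethylated counts of all 1021389 tiles were fitted together in edgeR, and each tile was given a quasi-likelihood test with Benjamini-Hochberg adjustment over the whole set. These p-values rest on counting error and on the spread between the 5 libraries only. That spread was estimated partly from a trend shared by all tiles fitted. Of the 2490 tiles, 171 (6.87%) passed an adjusted p of 0.05. In 169 (6.79%) the level rose in Tet2-/-, where 2.36% of all tiles rose, and in 2 it fell, where 0.0094% of all tiles fell. Of the 169 gains, 131 were among the 693 tiles with a Tet2+/+ mean under 15%, which met the lower bound only through Tet2-/- and so had to differ. Among the 1797 tiles with a Tet2+/+ mean of 15% or over, 38 rose (2.11%), close to the 2.36% of all tiles. This split uses the values under test too, so both shares are descriptions, and nothing is read from the higher share over the 2490 tiles. At an unadjusted p under 0.05, 687 tiles passed (27.6%), against 16.5% of all tiles. The 169 gains lay nearest to 155 genes, and the smallest was 15.9 points. Their median level was 8.76% in Tet2+/+ and 36.7% in Tet2-/-, against 21.3% and 31.5% over the 2490 tiles. In 166 of the 171 called tiles the groups did not overlap. Taking all 2490 tiles, every Tet2-/- library was above both Tet2+/+ libraries in 981 (39.4%), against 33.2% of all autosomal tiles, and below both in 49 (1.97%), against 2.03%. Without library 8 the order turned, with the groups apart in either direction in 48.2% of the 2490 tiles and 52.0% of all tiles, so nothing is read from the first contrast.

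The number of calls changed with the libraries used, with the tiles fitted together and with subtraction of library medians. Without Tet2+/+ library 24, which had the lowest autosomal level, 26 tiles were called (1.04%, 22 of them higher), where 0.163% of all tiles were called, and 21 of the 26 were among the 171. Without library 23, 5, 7 or 8 the count was 151, 173, 126 and 117 (6.06%, 6.95%, 5.06% and 4.70%), where 1.24%, 2.17%, 1.16% and 2.16% of all tiles were called. When the CpG-dense tiles were fitted alone, 19 were called, all higher, where 0.218% of all CpG-dense tiles rose. That fit left the counts unchanged and removed no shift, but the trend of the spread and the adjustment came from CpG-dense tiles only. Why the count fell was not tested. With limma on log2 odds after the median of each library over all tiles was subtracted, which lowers every difference by 0.67 in log2 odds, 16 were called. Of these 14 were higher (87.5% of the calls), where limma without the subtraction called 137 with 98.5% higher and edgeR 171 with 98.8% higher, and by the test with subtraction 0.272% of all tiles were called higher and 0.0316% lower. The 16 and the 19 were all among the 171, and 12 tiles were in both.

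The 8 largest gains, taken as 1 tile per nearest gene, ran from 54.8 to 67.2 points. For these and for the 2 losses, no bound of a library's 95% Wilson interval lay more than 9.64 points from its level, which covers counting error only. The tile at the 5′ end of Fignl2 (chr15:101054001-101055000, with the start site and part of the coding sequence), a relative of the microtubule-severing enzyme fidgetin, was at 18.8% and 7.26% in Tet2+/+ and at 89.1%, 61.5% and 90.2% in Tet2-/-. The groups were far apart, with means of 13.03% ± 8.15 (SD, n = 2) and 80.3% ± 16.3 (SD, n = 3) and an adjusted p of 2.22e-06. In a coding exon of Tubb5 (chr17:35835001-35836000, 1060 bp from the nearest annotated start site), which encodes a beta-tubulin found in most cells, the levels were 14.8% and 5.18% against 67.2%, 78.7% and 84.97%. It rose by 66.96 points with an adjusted p of 1.09e-06, and all Tet2-/- libraries were above 50%.

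In a coding exon of Mycn (chr12:12937001-12938000), a Myc family gene, the Tet2+/+ libraries were at 12.1% and 2.31% and the Tet2-/- libraries at 53.97%, 96.1% and 70.4%. Library 7 was the highest here, in contrast with Fignl2, and the difference of 66.3 points had an adjusted p of 9.40e-06. A coding exon of Fam43a (chr16:30601001-30602000) went from 24.7% and 13.9% to 81.8%, 87.5% and 79.5%, with the smallest spread among the Tet2-/- libraries (82.9% ± 4.15, SD, n = 3) of the 8 (adjusted p = 4.86e-06). The tile over a start site of Slc27a1 (chr8:71569001-71570000), a fatty acid transporter, was at 12.9% and 12.1% in Tet2+/+ and at 62.2%, 51.5% and 88.3% in Tet2-/-. Its Tet2+/+ libraries were nearly equal, and the gain of 54.8 points had an adjusted p of 2.57e-04.

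An exon of Nbea close to Mab21l1 (chr3:55780001-55781000), a gene of eye development, was at 27.3% and 15.3% against 93.8%, 54.4% and 94.2% (adjusted p = 2.09e-04). Libraries 5 and 8 were nearly fully methylated and library 7 was not, and the adjusted p was 0.0546 after subtraction of library medians and 0.0557 in the fit of CpG-dense tiles alone. The next island lay over a start site of Aff3 (chr1:38627001-38628000, 147 dyads), a nuclear regulator expressed in lymphoid cells. It was at 40.6% and 0% in Tet2+/+ and at 53.8%, 97.01% and 89.3% in Tet2-/-. The 0% came from 0 of 154 calls, which allows up to 1.95% if calls are independent. The Tet2+/+ libraries were further apart there than library 23 was from library 5. The tile of Lrba and Mab21l2 (chr3:86547001-86548000), Lrba being a gene of vesicle traffic in immune cells with Mab21l2 inside it, was at 30.4% and 3.82% against 34.7%, 95.3% and 88.7%. Library 5 was close to library 23 there. The adjusted p was 0.00159 at Aff3 and 4.63e-04 at Lrba, and neither call was kept without library 24 (0.212 and 0.0687) or without library 7 (0.0574 and 0.0598). In the fit of CpG-dense tiles alone neither passed (0.147 and 0.104), and Lrba did not pass after subtraction of library medians (0.0584).

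Of the 2 tiles that fell, that of 1700001L05Rik (chr15:83367001-83368000, at its start site) was at 91.8% and 32.7% in Tet2+/+ and at 7.23%, 6.91% and 10.2% in Tet2-/-. The Tet2-/- libraries lay close together and those of Tet2+/+ far apart, and the call (adjusted p = 2.32e-04) was not kept without library 23 (0.0982). The tile of Diras2 (chr13:52530001-52531000, 279 bp from a start site), a Ras-like GTPase, was at 67.5% and 72.6% against 35.2%, 22.5% and 40.6%. Here it was the Tet2+/+ libraries that lay close together. The adjusted p was 0.0253, and the call was lost without library 23, 24 or 7 (0.108, 0.469 and 0.0875). In the fit of CpG-dense tiles alone neither loss passed (0.0557 at 1700001L05Rik and 0.113 at Diras2). In the printed window of 27 CG the levels were 83.3% and 71.1% against 32.2%, 24.5% and 78.6%, so library 8 overlapped with Tet2+/+ there.

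**Figure D3:**
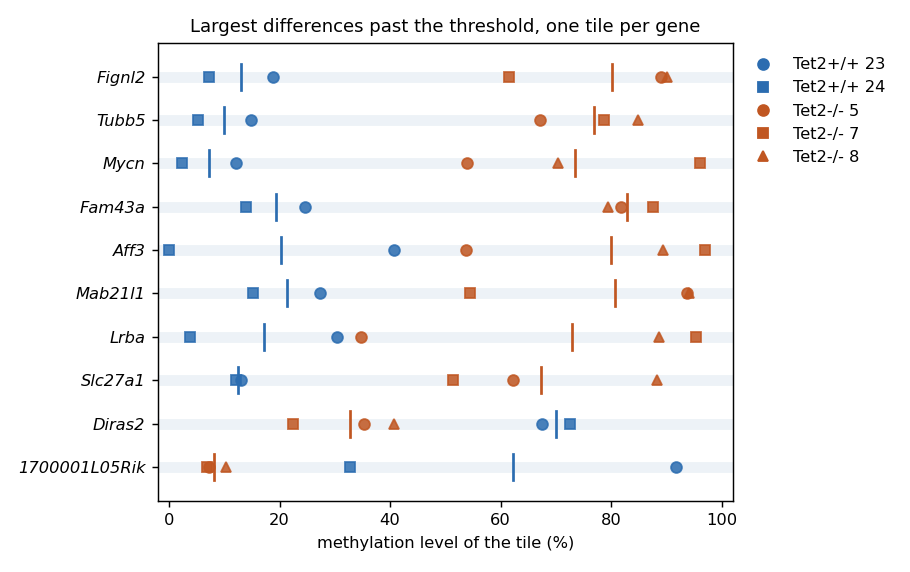
Methylation level (%) of the 8 tiles with the largest gains and of both tiles with a loss, named by nearest gene, with 1 symbol per library (circles, squares and a triangle) and vertical ticks at the group means. At Fignl2, Tubb5, Mycn and Fam43a the Tet2+/+ libraries sit at 24.7% or lower and the Tet2-/- libraries at 53.97% or higher, and at 1700001L05Rik and Diras2 the order is the opposite.

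The neighbouring tiles were compared in the same way. Counting outward while the difference stayed at 20 points or more in the same direction, the gain at Fignl2 covered 8 adjoining tiles (chr15:101048001-101056000), which include CpG-poor DNA on both sides of the island. At Aff3 and Lrba it covered 3 tiles, and at Tubb5, Mycn and Mab21l1 2 tiles. At Fam43a and Slc27a1 the count stopped at the named tile, although around Fam43a tiles further out differed by 20 points or more. The count ended at a tile with too few calls on 1 side at Tubb5, Aff3 and 1700001L05Rik and on both sides at Lrba, so that these differences may reach further. Next to the Tubb5 tile on 1 side was a tile of 28 dyads at 7.57% and 2.43% against 9.91%, 18.1% and 10.6%, and the next tile, with 46 dyads, was at 2.13% or lower in all 5 libraries. The Mycn tile lay between DNA at 60.7% to 96.8% on 1 side and, 2 kb away on the other, a tile at 5.04% to 18.01%, so that the tile that differed was at the edge of a stretch of low methylation. The loss at 1700001L05Rik covered 2 tiles and that at Diras2 1 tile.

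**Figure D4:**
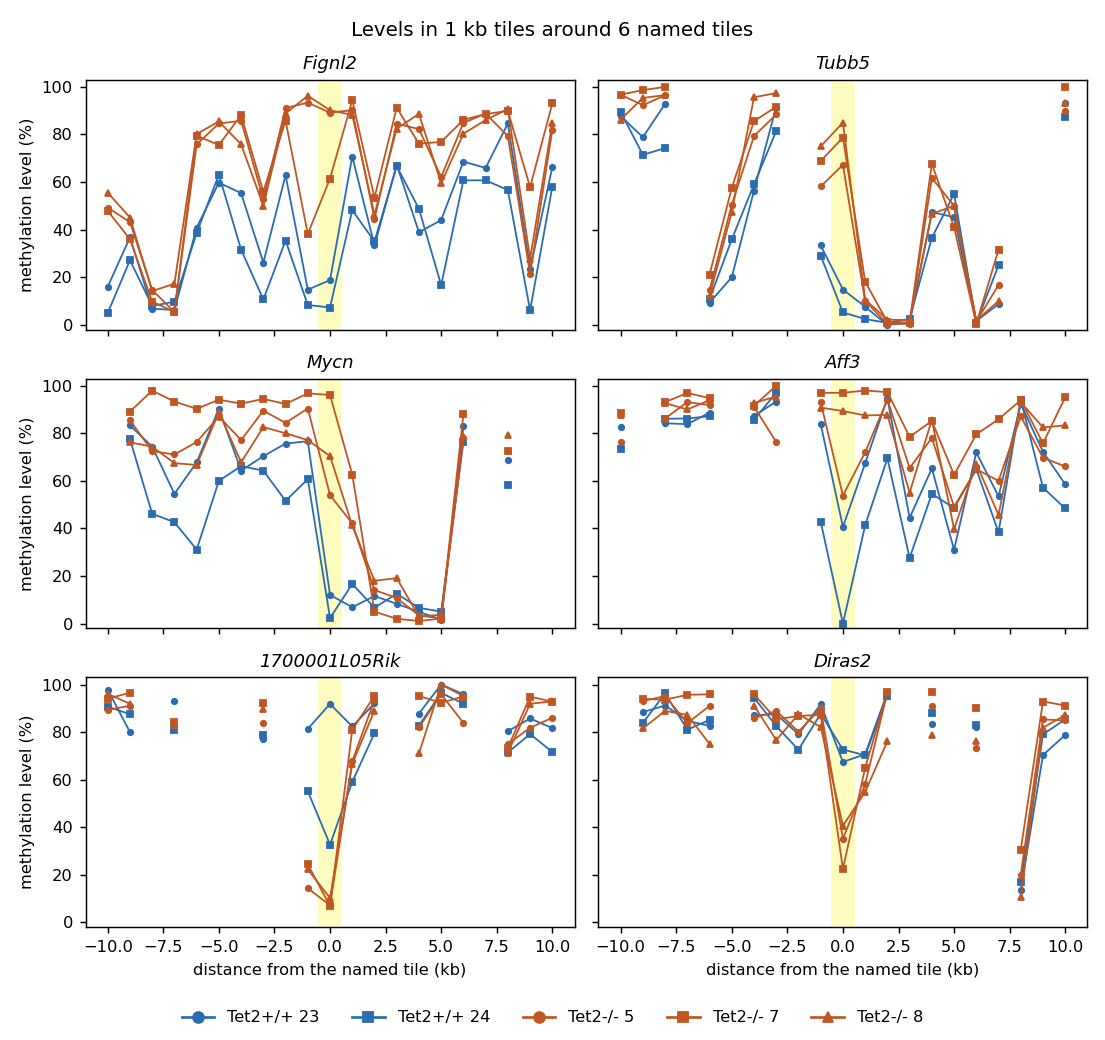
Methylation level (%) in 1 kb tiles from 10 kb before to 10 kb after 6 named tiles (shaded, at 0), with 1 line per library; gaps are tiles with fewer than 20 calls in some library. In the shaded tile the blue Tet2+/+ lines lie under all orange Tet2-/- lines at Fignl2, Tubb5, Mycn and Aff3, and above all of them at 1700001L05Rik and Diras2.

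Without library 23 or 24 the Tet2+/+ group is 1 library, which is then assumed to vary as the Tet2-/- libraries do. Leaving out each of the 5 libraries in turn, 17 tiles (0.683%) stayed called, against 0.114% of all autosomal tiles. All 17 were gains, and 14 had a Tet2+/+ mean under 15%, so that they could be among the 2490 tiles only as gains and neither their direction nor their share is a result. They include the tiles of Fignl2 (2 of them), Tubb5, Mycn, Fam43a, Mab21l1 and Slc27a1 described above. The other 10, named because of this and so after their values were seen, lay at Nhlh1, Slc5a5, Phospho1, Insm2, Exoc3l4, Trio, Efna5, Fer, A930002H24Rik and Dnmbp. At the start site of Slc5a5 (chr8:70892001-70893000), the iodide transporter of the thyroid, the levels were 4.81% and 4.11% in Tet2+/+ and 41.6%, 33.5% and 51.97% in Tet2-/- (adjusted p = 1.64e-05). At Efna5 (chr17:62880001-62881000), an ephrin ligand, they were 4.84% and 1.33% against 45.1%, 28.9% and 43.6% (adjusted p = 4.21e-05). In both tiles the Tet2+/+ libraries were under 5% and each Tet2-/- library was over 20%.

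At Insm2 (chr12:55599001-55600000, 123 dyads), a zinc finger transcription factor gene, the levels were 8.61% and 7.36% against 42.4%, 39.4% and 60.8%. At the start site of Dnmbp (chr19:43940001-43941000), an activator of Cdc42, they were 2.68% and 0.791% against 28.9%, 21.2% and 35.03%. The gains at Insm2 and Dnmbp had adjusted p-values of 1.78e-04 and 5.54e-05. A pair of adjoining tiles on chromosome 17 held the start sites of A930002H24Rik and of Fer, a tyrosine kinase. At chr17:63863001-63864000 the levels were 3.38% and 2.65% against 40.4%, 15.6% and 33.3%, and at chr17:63864001-63865000 they were 2.33% and 1.20% against 40%, 9.67% and 51.5%. Library 7 was the lowest of its genotype in both. The remaining 4 gains were 47.5 points in a coding exon of Nhlh1, a neuronal transcription factor, 50.05 points in a coding exon of Exoc3l4, 39.2 points at Phospho1, a phosphatase of skeletal mineralisation, and 28.8 points at Trio, an exchange factor for small GTPases. Of the 17, 9 were also called by limma with library medians subtracted and in the fit of CpG-dense tiles alone.

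The partly methylated tiles lay mostly at promoters. By GENCODE vM21, 2082 (83.6%) were within 1 kb of a transcription start site, 190 (7.63%) further away in coding exons, 25 in other exons, 75 in introns and 118 (4.74%) outside genes. The share near a start site was 95.5% among CpG-dense tiles under 15% and 34.2% among those at 60% or over. Tiles near start sites had a median difference of 8.31 points, and 133 of them rose (6.39%), against 2.24% of all CpG-dense tiles near start sites. In coding exons the median difference was 11.98 points and 26 rose (13.7%), against 6.87% of all CpG-dense tiles there. Both shares of the partly methylated tiles depend on their choice by level, as above. The mean level in those exons was 25.995% and 21.8% in Tet2+/+ and 36.3%, 34.5% and 42.9% in Tet2-/-, so that library 8 was highest. Both losses were near start sites. The difference between the locations was not tested.

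In sequence the tiles stood between the other CpG-dense classes. The median number of dyads was 64, against 71 in tiles under 15% and 58 in tiles at 60% or over. The ratio of observed to expected CpG, which is 1 where C and G meet as often as their frequencies predict, was 0.713 against 0.785 and 0.646. GC content hardly differed, with medians of 61.6%, 61.7% and 61.4%. The share of CpG-dense tiles that were partly methylated was 23.9% at 50 to 59 dyads, 17.3% at 60 to 79 and 13.7% at 80 or more. Among the partly methylated tiles, gains made up 5.44%, 6.24% and 9.76% in the same order, but over all CpG-dense tiles 2.43%, 2.24% and 2.63%, and the shares of the partly methylated tiles depend on their choice by level. The 2490 tiles fell into 2082 separate stretches, of which 1732 were single tiles, 302 pairs, 41 runs of 3, and 7 longer runs. Tiles of 1 stretch share an island and are not independent of each other.

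Within a tile the methylation was often uneven. Each tile was cut into 4 pieces of 250 bp and the calls of the 5 libraries were pooled. The range over the pieces was under 20 points in 890 tiles (35.7%) and 50 points or more in 648 (26.02%), with a median of 26.02 points. In even tiles the mean level was 25.1% and 25.4% in Tet2+/+ and 38.01%, 29.9% and 35.8% in Tet2-/-, with a median difference of 9.59 points and 69 gains (7.75%). In tiles with the wide range it was 25.1% and 20.7% against 29.9%, 29.2% and 33.8%, with a median difference of 7.34 points and 38 gains (5.86%), so that both shares were near the 6.79% of the 2490 tiles. Of the 145306 single dyads with at least 10 pooled calls, 42.4% were under 20%, 52.9% from 20% to 80% and 4.73% over 80%.

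The DNA on both sides was itself often partly methylated. In 2385 tiles both adjoining kilobases had a level, with a median of 40.5% to the left and 40.3% to the right, where CpG-dense tiles under 15% had medians of 19.9% and 20.3%. Both sides were between 15% and 60% in 977 tiles (40.96%). One side was under 15% and the other at 60% or over in 292 (12.2%), as at the edge of an unmethylated island. Both sides were at 60% or over in 180 (7.55%), which had a median difference of 10.95 points and 22 gains (12.2%), and both were under 15% in 15 tiles with 0 gains, too few to read. In the other 4 arrangements of the sides the share of gains was 5.32% to 7.84%. Of all partly methylated CpG-dense tiles 6.79% rose, and of all autosomal tiles 2.36%. The shares by arrangement depend on the choice of tiles by level, as above. The differences between arrangements were not tested, so nothing is read from the higher share.

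Developmental transcription factors, a list of 237 genes of organ and axis patterning, held 513 CpG-dense tiles, and 329 of these (64.1%), at 173 genes, were partly methylated, where the share over all CpG-dense tiles was 18.1%. Their mean level was 24.95% and 23.8% in Tet2+/+ and 34.9%, 28.9% and 38.4% in Tet2-/-. The median difference was 9.74 points, 287 had a positive difference, and 15 rose (4.56%, against 6.79% of the 2490 tiles) while 0 fell. After subtraction of library medians 1 was called. For this and each further list, up to 4 tiles with the most calls over the 5 libraries, 1 per gene, are named whatever their difference. At Foxl2 (chr9:98955001-98956000), the ovary factor, the levels were 3.90% and 5.01% against 37.8%, 8.55% and 42.5% (adjusted p = 0.00447, and 0.0551 without library 24, 0.300 after subtraction of library medians and 0.102 in the fit of CpG-dense tiles alone). The Tet2+/+ mean at Foxl2 was 4.45%, under 15%, so this tile met the lower bound only through Tet2-/-. At Six2 (chr17:85687001-85688000), which marks nephron progenitors, the levels were 13.2% and 13.8% against 18.6%, 9.71% and 31.6%, so the groups overlapped. At Foxl1 (chr8:121128001-121129000), a factor of gut mesenchyme, they were 16.4% and 38.8% against 12.2%, 16.2% and 27.6%, and at Sp8 (chr12:118849001-118850000), a limb bud factor, 46.1% and 20.1% against 60.2%, 28.95% and 36.9%, and neither passed the test.

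Imprinted genes held 64 CpG-dense tiles, of which 33 (51.6%) at 18 genes were partly methylated. The median difference was 7.47 points, 24 differences were positive and 2 tiles rose (6.06%), a share near that of the 2490 tiles, with 0 called after subtraction of library medians. These, named because they were called, were the adjoining tiles at Igf2, the fetal growth factor expressed from the paternal copy. At chr7:142658001-142659000 the levels were 3.51% and 2.54% against 26%, 17.9% and 50%, and at chr7:142659001-142660000 they were 8.43% and 3.15% against 31.8%, 13.9% and 46.3%. All Tet2-/- libraries were above both others in both tiles, with adjusted p-values of 0.00245 and 0.0159, which were 0.155 and 0.557 without library 24 and, at the second tile, 0.0750 without library 8. Neither passed after subtraction of library medians (0.112 and 0.284) or in the fit of CpG-dense tiles alone (0.0612 and 0.124).

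The imprinted tiles with the most calls did not pass the test. At Commd1 (chr11:22972001-22973000, with the start site of Zrsr1, which is expressed from the paternal copy) the levels were 42.5% and 46.1% against 41.3%, 31.1% and 31.1% (adjusted p = 0.589). At Impact (chr18:12973001-12974000), a regulator of translation, they were 33.5% and 20.2% against 27.3%, 18.9% and 30.2% (adjusted p = 0.952). At Kcnk9 (chr15:72546001-72547000), a potassium channel, they were 42.7% and 37.1% against 61.6%, 55.8% and 44.6% (adjusted p = 0.433). The groups were apart at Commd1 and Kcnk9, in opposite directions, and overlapped at Impact. At Cdkn1c (chr7:143460001-143461000), an inhibitor of the cell cycle, they were 53.3% and 37.9% against 59.4%, 50.6% and 45.7% (adjusted p = 0.764).

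Among genes of the germline, 6 of 37 CpG-dense tiles were partly methylated, with a median difference of 15.3 points, and 2 rose (33.3%, against 6.79% of the 2490 tiles), with 0 called after subtraction of library medians. Both lay in adjoining tiles at Dmrt1, a transcription factor of testis development, and a share of 6 tiles is not a result about these genes. The tile at chr19:25505001-25506000, named after its values were seen, had a Tet2+/+ mean of 4.15%, so it met the lower bound only through Tet2-/-. Its levels were 5.56% and 2.74% against 13.04%, 32.3% and 35.6% (adjusted p = 0.00979). At chr19:25506001-25507000 they were 28.4% and 17.7% against 55.4%, 56.6% and 61.7% (adjusted p = 0.0239). The groups were apart in both, but the calls were lost without library 24 (0.349 and 0.589) or library 7 (0.0515 and 0.0570), and at the second tile also without library 23 or 8 (0.0544 and 0.0541). Neither passed after subtraction of library medians (0.159 and 0.272) or in the fit of CpG-dense tiles alone (0.0879 and 0.0914).

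The other 3 germline tiles named did not pass. At Stag3 (chr5:138280001-138281000), a cohesin of meiosis, the levels were 15.1% and 7.14% against 31.8%, 31.9% and 32.2%. The adjusted p was 0.0502, and 0.0419 in the likelihood ratio test of edgeR. Without library 5, 7 or 8 it was 0.0865, 0.118 and 0.0727. It was 0.388 after subtraction of library medians and 0.142 in the fit of CpG-dense tiles alone. At Tdrd5 (chr1:156303001-156304000) they were 42.9% and 59.3% against 46.7%, 34.5% and 39.7%, and at Tdrkh (chr3:94413001-94414000) 30.5% and 69.01% against 26.2%, 16.7% and 33.8%. Both encode Tudor domain proteins of germ cells, and library 24 was the highest in both.

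Of the 145 CpG-dense tiles of hematopoietic transcription factors, 23 (15.9%) were partly methylated. Their median difference was 10.5 points, and 2 rose (8.70%, against 6.79% of the 2490 tiles), at Mycn (above) and Gfi1. At Gfi1 (chr5:107723001-107724000), a repressor that guides granulocyte differentiation, the levels were 67.8% and 2.06% against 47.8%, 91.5% and 83.7%. Library 5 lay below library 23, and the adjusted p of 0.0419 was 0.930 without library 24, 0.319 without library 7 and 0.0870 without library 8, 0.249 after subtraction of library medians and 0.332 in the fit of CpG-dense tiles alone. At Lef1 (chr3:131111001-131112000), a Wnt effector, the levels were 26.02% and 17.96% against 34.6%, 9.56% and 28.6%. At Prdm16 (chr4:154635001-154636000), a stem cell regulator, they were 32.8% and 42.4% against 51.6%, 16.2% and 37.5%, and at Ikzf1 (chr11:11685001-11686000), a lymphoid factor, 23.04% and 29.97% against 19.8%, 25.9% and 25.3%. The groups overlapped in all 3 and none passed the test. The 250 bp pieces of the Ikzf1 tile differed by 88.4 points, so that tile combines an unmethylated and a methylated part.

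Tumor suppressor genes often methylated in cancer held 99 CpG-dense tiles, of which 36 (36.4%) were partly methylated, with a median difference of 7.59 points. By edgeR's quasi-likelihood test 0 of the 36 were called, where 6.79% of the 2490 tiles rose, and 7 had an unadjusted p under 0.05. The likelihood ratio test called 1 (Id4) and limma 0. A count of 0 among so few tiles is not a result about these genes. At Id4 (chr13:48261001-48262000), an inhibitor of helix-loop-helix factors, the levels were 16.2% and 3.45% against 41.3%, 19.7% and 23.1% (adjusted p = 0.0550). The adjusted p was 0.0318 in the likelihood ratio test and 0.0829 by limma. Without library 5, 7 or 8 it was 0.176, 0.1003 and 0.0459. It was 0.437 after subtraction of library medians and 0.214 in the fit of CpG-dense tiles alone. The difference of 18.2 points became 24.6 points without library 23 and 11.8 points without library 24. The groups did not overlap. At Sfrp2 (chr3:83766001-83767000) they were 4.51% and 35.1% against 8.02%, 69.98% and 12.5%, a wide spread within both genotypes. At Sfrp5 (chr19:42201001-42202000) they were 18.3% and 17.9% against 25%, 29.9% and 44.8%, and at Sox17 (chr1:4492001-4493000) 21.4% and 15.9% against 14.99%, 24.04% and 29.1%. Sfrp2 and Sfrp5 encode secreted antagonists of Wnt, and Sox17 an endoderm factor.

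The remaining lists contributed fewer tiles. Lymphoid and erythroid markers held 3 of 11 CpG-dense tiles. The tile of Pax5 (chr4:44703001-44704000), the B cell identity factor, was at 20.4% and 20.05% against 40.4%, 28.7% and 52.8% (adjusted p = 0.157), and that of Sptb (chr12:76709001-76710000), a spectrin of red cells, at 11.3% and 5.97% against 25.2%, 17.1% and 19.08% (adjusted p = 0.230). The groups were apart in both. Clustered protocadherins, adhesion proteins of neurons, held 4 of 25, with 3 tiles named on chromosome 18. The tile taken for Pcdhga1 (chr18:37807001-37808000) lay inside that gene but in exons of BC037039 and Pcdhgc3, with BC037039 as the nearest start site. It was at 7.999% ± 1.11 (SD, n = 2) against 25.7% ± 14.95 (SD, n = 3). The adjusted p was 0.0910, and 0.00741, 0.443 and 0.184 without library 5, 7 or 8. It was 0.576 after subtraction of library medians and 0.268 in the fit of CpG-dense tiles alone. The levels were 45.7% ± 6.63 against 51.4% ± 0.565 at Pcdhac2 and 19.09% ± 12.1 against 25.5% ± 11.9 at Pcdhgc4, with the same n.

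Zinc finger (Zfp) genes held 32 of 248 CpG-dense tiles, with a median difference of 6.93 points and 2 gains (6.25%, near the 6.79% of the 2490 tiles). Both gains were in adjoining tiles that overlap Zfp652, with Phospho1 as the nearest start site and the only coding sequence. At chr11:95830001-95831000 the levels were 6.38% and 5.96% against 29.6%, 9.91% and 42.7% (adjusted p = 0.0369, 0.0875 to 0.427 without library 23, 24, 5 or 8, and 0.0668 by limma), and at chr11:95831001-95832000 they were 6.56% and 5.51% against 33.9%, 30.4% and 71.3% (adjusted p = 6.50e-04). Neither passed after subtraction of library medians (0.464 and 0.0847) or in the fit of CpG-dense tiles alone (0.174 and 0.0507). At Zfp385c, Zfp518a and Zfp740 the differences were 2.65, -1.72 and -5.98 points, and none passed. The 250 bp pieces of the Zfp518a tile differed by 94.9 points and those of the Zfp740 tile by 85.9 points, so that these tiles combine an unmethylated and a methylated part. Predicted gene models (Gm) held 458 of 2266 CpG-dense tiles at 360 genes, with a median difference of 8.19 points and 29 gains (6.33%, also near 6.79%), and 0 were called after subtraction of library medians. The 4 tiles of this list with the most calls, at Gm26917, Gm42418, Gm23935 and Gm37844, had differences of -3.72 to 2.28 points, and the first 3 had 7.77 to 29.97 times the median coverage of CpG-dense tiles.

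The gene lists that the study drew from RNA of the same leukemia model were used for membership only. Genes listed as lower in Tet2-deficient cells held 120 CpG-dense tiles, and 39 (32.5%) at 28 genes were partly methylated. Their mean level was 25.9% and 25.5% in Tet2+/+ and 45.9%, 38.2% and 42.5% in Tet2-/-. The median difference was 14.8 points, 35 of 39 differences were positive, and 8 tiles rose (20.5%), against 6.79% of the 2490 tiles. After subtraction of library medians 1 of the 39 was called, and in the fit of CpG-dense tiles alone 0. The share that rose depends on the choice of tiles by level, as above, and 2.36% of all tiles rose. From its WGBS of these genotypes the study had itself reported more methylation at promoters of genes with lower RNA. RNA and DNA came from the same model, so the share is not independent evidence of a direction, and set tests were not run. The tiles of this list with the most calls, beside Pax5, did not pass. At Tmem267 (chr13:119488001-119489000) the levels were 21.99% and 42.03% against 66.1%, 47.04% and 50.4%, so all Tet2-/- libraries were above both Tet2+/+ libraries. The adjusted p was 0.0972, and 0.245, 0.252 and 0.0491 without library 5, 7 or 8. It was 0.712 after subtraction of library medians and 0.264 in the fit of CpG-dense tiles alone. At Mzf1 (chr7:13043001-13044000), a myeloid zinc finger factor, the difference was 0.0873 points and at Myo15b (chr11:115858001-115859000) 9.04 points.

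Genes listed as higher in RNA held 7 partly methylated tiles of 53 CpG-dense tiles, with a median difference of 2.05 points. The 2 that rose (28.6%, against 6.79% of the 2490 tiles) were both at Fignl2. Their Tet2+/+ means of 13.03% and 11.5% were under 15%, so they met the lower bound only through Tet2-/-. The share is therefore not a result about this list. Aff3, also among the 8 largest gains, was on the list of genes with lower RNA. Fignl2, the gene with the largest gain at its start site, was on the list of genes with more RNA. Its second tile (chr15:101053001-101054000, 156 dyads) was at 14.7% and 8.32% against 93.4%, 38.2% and 96.3% (adjusted p = 2.43e-05, and 0.0557 in the fit of CpG-dense tiles alone). At Neurl1a (chr19:47253001-47254000), a ubiquitin ligase, the levels were 27.9% and 21.96% against 32.02%, 34.6% and 46.7% (adjusted p = 0.417). At Bace2 the difference was 0.296 points.

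**Figure D5:**
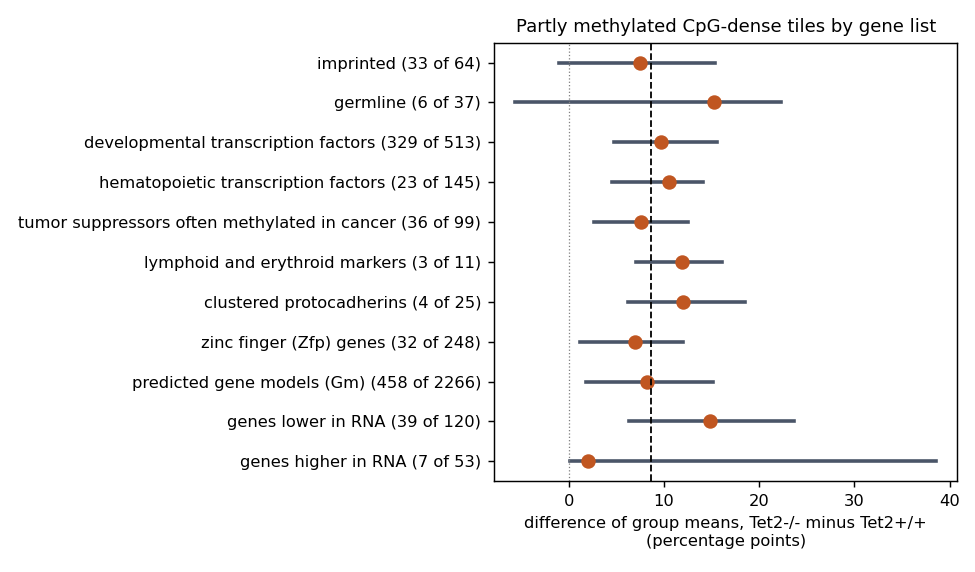
Difference of group means (Tet2-/- minus Tet2+/+, percentage points) of the partly methylated CpG-dense tiles of each gene list, as the median (point) and quartiles (bar); the numbers are partly methylated tiles of CpG-dense tiles. The dashed line is the median over all 2490 tiles, 8.62 points, and the list of genes lower in RNA has its median at 14.8 points.

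Of the 2490 tiles, 758 (30.4%) lay in runs of 2 or more adjoining tiles, and 7 runs were of 4 tiles or more. The longest, 6 tiles at chr17:39843001-39849000, lay at Gm26917, Gm42418 and AY036118, where coverage was 29.97 and 28.3 times the median of CpG-dense tiles in the tiles named for Gm26917 and Gm42418. Reads of near-identical copies may be summed there, so its levels are uncertain. They averaged 31.3% and 30.1% in Tet2+/+ and 26.1%, 32.1% and 18.6% in Tet2-/-, with library 8 the lowest. The next, 5 tiles at Tlx3 (chr11:33200001-33205000), a neuronal homeobox gene also known from T cell leukemia, averaged 38.6% and 36.3% against 51.7%, 34.98% and 44.99%. At Lmx1b (chr2:33639001-33643000), a limb patterning gene, 4 tiles averaged 22.6% and 27.5% against 30.1%, 36.4% and 40.1%. The groups overlapped over the first and second runs and were apart over the third, and no tile of the 3 runs was called. The third was the first by position of 5 runs of 4 tiles, and of the other 4 runs 1 (chr13:3358001-3362000, at Gm48530 and Gm16505) held 1 called tile.

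Some tiles differed more between libraries of 1 genotype than between genotypes. In Basp1 (nearest start site 4930445E18Rik, chr15:25364001-25365000) the levels were 89.7% and 7.74% in Tet2+/+ and 13.6%, 87.7% and 8.95% in Tet2-/-. In Cacna1b, near Gm13459 (chr2:24679001-24680000), they were 91.4% and 12.3% against 55.3%, 83.4% and 47.3%. The gap between the Tet2+/+ libraries was also wide at AC102496.1 (84% and 3.797%) and at Acot4 (86.3% and 8.14%), with library 23 the higher in all 4. Within Tet2-/- the widest ranges were at Cep85 (88.7%, 5.80% and 96.7%), Henmt1 (9.70%, 97.6% and 28.5%), Gm15645 (91.1%, 3.90% and 85.1%) and Wdr86 (2.89%, 89.2% and 14.7%). Library 7 was alone at 1 end in each of these. In 5 called tiles the groups overlapped, namely those of Cep85, Gfi1 and Gm15645 and, named after their values were seen, Otud7a and Lrig3. None of the 5 passed after subtraction of library medians (0.249 to 0.541).

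At the bounds of the rule, Iqsec1 and Pfn3 were just inside with mean levels of 15.0028% and 15.0428%, and Cplx2 and Snhg20 just outside with 14.9988% and 14.9974%. The tile named for Pfn3 lay in a coding exon of F12. Its Tet2+/+ mean was 3.28%, so it met the lower bound only through Tet2-/-. It was a called gain (adjusted p = 0.0118), but not after subtraction of library medians (0.275) or in the fit of CpG-dense tiles alone (0.130). At the upper bound, Galnt13 and Gm8108 were inside with 59.97% and 59.8771%, and Kl and Kcnf1 outside with 60.1% and 60.2%.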

How the data were processed

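WGBS libraries of sorted blasts from 2 Cebpa-/p30 Tet2+/+ and 3 Cebpa-/p30 Tet2-/- mice were used. The authors trimmed reads with Trim Galore (0.4.3), aligned them to GRCm38 with Bismark (0.19.1) in non-directional mode, removed duplicates and deposited methylated and unmethylated counts per CpG cytosine of each strand. Both strands were summed per dyad and per 1 kb tile (Python 3.11.15, numpy 2.4.6, pandas 2.3.3) for the autosomes. Differences were tested with edgeR (4.0.16, R 4.3.3) on methylated and unmethylated counts with a library term, and on log2 odds with limma (3.58.1), with 2 added to each count. The dispersion bins of edgeR break ties at random, so the seed was fixed at 1. With seeds 2 and 3, tried after seeing the data, the same 171 tiles were called, and adjusted p-values up to 0.1 moved by at most 0.487%. The tests were tried on simulated data in which a single setting gave the spread between libraries in all tiles, without a genome-wide shift. That check cannot show how a spread that differs between tiles, or a shift, affects the calls. Intervals are Wilson 95% intervals and, like limits for counts of 0 (3 counts), cover counting error only. Both treat calls as independent, which calls on 1 read are not, so they are too narrow. Genes were taken from GENCODE vM21. Tiles were named by nearest start site, but tiles of the gene lists by an overlapping or nearest gene, so another start site can be closer.

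The alternatives were other tests, coverage minimums, a shifted grid, other bounds, and leaving out each library. The members and gene lists were chosen with earlier results of these data known. Tiles were named as the 8 largest called differences in each direction without overlap of groups (1 per nearest gene), the 4 tiles per list with the most calls (1 per gene), the longest runs, the 4 widest spreads within each genotype, and those nearest to the bounds. Tiles called with any library left out, called with overlapping groups, or called in lists with few calls were added after their values were seen. The lists of genes lower or higher in RNA, and their direction, are those of the study, and no value of theirs was used otherwise. Columns belonging to no sample here numbered 0. Sex chromosomes were not analysed here. The result of 1 tile that met the naming rule is not reported here.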

Additional observations from a re-analysis of the deposited data

How the results depend on the processing

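The mean difference over the partly methylated tiles stayed positive under every alternative run. It went from 7.89 points with calls pooled over tiles to 9.32 points over dyads called in all 5 libraries. With 1 library left out it was 8.03 to 10.8 points, with the same 2490 tiles kept. The sign is not a result about these tiles, since the mean difference over all autosomal tiles was 7.61 points. No such mean was computed after subtraction of library medians. The number of called tiles was 171. It was 16 by limma with library medians subtracted and 19 with CpG-dense tiles fitted alone, and 26 (without library 24) to 173 (without library 5) with 1 library left out. The other alternatives gave 137 to 233, including 159 when the tiles were chosen by the mean of the group means, an alternative added after seeing the data. Tiles whose groups did not overlap numbered 1030, and 1201 (48.2%, against 52.0% of all tiles, without library 8) to 1712 (68.8%, against 64.3%, without library 23) with 1 library left out, fewer libraries making this easier. The order of the 2 shares turned without library 8. With at least 40 or 60 dyads, 4129 or 1497 tiles met the rule. Causes were not tested.

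With 1 library left out, these differences that were not called changed sign (lowest and highest, in points): Impact -8.05 and 5.25, Cdkn1c -1.38 and 14.02, Foxl1 -20.08 and 2.26, Sp8 -4.11 and 21.93, Lef1 -2.92 and 9.57, Prdm16 -10.73 and 6.94, Ikzf1 -6.31 and 0.62, Sfrp2 -9.56 and 25.64, Pcdhgc4 -2.22 and 14.95, Zfp518a -4.02 and 1.595, Gm42418 -7.37 and 0.52, Gm23935 -2.71 and 9.47, Gm37844 -3.68 and 8.49, Mzf1 -3.54 and 6.26, Bace2 -2.87 and 3.46, 4930445E18Rik -52.95 and 29.03, AC102496.1 -67.81 and 12.40, Gm13459 -29.42 and 49.69, Acot4 -64.01 and 14.17, Henmt1 -21.50 and 22.46. After subtraction of library medians, which compares each tile with the typical tile, limma gave a negative difference in log2 odds for Cdkn1c (-0.30), Six2 (-0.16), Sp8 (-0.065), Lef1 (-0.66), Sox17 (-0.36), Pcdhac2 (-0.35), Pcdhgc4 (-0.12), Zfp385c (-0.45), Gm23935 (-0.57), Gm37844 (-0.62), Mzf1 (-0.69), Myo15b (-0.042), Bace2 (-0.63), Gm13459 (-0.12). At Mzf1 it was also negative without that subtraction (-0.014). No other tile named for a list, a difference or a spread reversed, and tiles at the bounds of the rule were not recomputed. Depth limits the tiles with few calls, the lowest having 21. No paired analysis was possible because the groups share no replicate numbers.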
